A study of Mus musculus with 12 samples.

Results

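The stress keratin genes Krt6a, Krt6b and Krt16 were followed in basal cells around a skin wound in the mouse. They were chosen by gene symbol, and every probe set that the array annotation pairs with one of them alone was taken, with no choice among the probe sets. This gave 3 of 17097 measured genes and 5 of 28898 probe sets with a single gene, 3 for Krt6a (1422783_PM_a_at, 1422784_PM_at and 1427700_PM_x_at, called Krt6a_a_at, Krt6a_at and Krt6a_x_at here), 1 for Krt6b (1422588_PM_at) and 1 for Krt16 (1448932_PM_at). Values were used for all 5, and no filter on low values was applied.

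Keratin 6 proteins are type II keratins that pair with type I keratins such as keratin 16 and keratin 17 to build intermediate filaments. In unwounded skin they are found mainly in the hair follicle, the nail bed and skin under friction. Keratinocytes at a wound edge switch them on within hours of injury, and in mice keratin 6 contributes to the mechanical strength of keratinocytes and restrains how fast they migrate. Krt6a and Krt6b are near-identical genes that are direct neighbours on chromosome 15, and Krt16 lies in the type I keratin cluster on chromosome 11 (RefSeq, GRCm38.p6).

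Tail skin of CD1 mice was wounded with a 3 mm biopsy and examined 4 days (D4) and 7 days (D7) later. The LE (leading edge) was removed with a punch of 4 mm placed over the wound, and the proliferative hub with one of 6 mm. Control skin was cut well away from the wound, and no unwounded animals are among the groups. The methods describe a pool of 5 CD1 mice, from which 300 basal cells per sample were sorted as α6-integrin positive and CD34 negative, and RNA amplified from them was run on Mouse Genome 430 PM strip arrays, 2 for each of 6 groups. That gate takes cells of the infundibulum, the upper part of the follicle, along with those between follicles. The labels name the 2 arrays biological replicates, but whether each was a pool of its own is not stated, so that SE and p rest on treating them as independent.

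The values are log2 intensities after RMA normalization. Array medians were 5.40 to 5.47 at D4 and 4.25 to 4.28 at D7, so that regions were compared within a day. Replicate arrays correlated across probe sets with r of 0.987 to 0.993. The 7 basal epidermal markers, among them Krt5, Krt14 and Itga6, averaged 6.59 to 7.02 log2 units above the array median, and none fell below it on any array. Of 6 fibroblast markers, 4 to 6 lay below the median of the array, as did 4 to 6 of 6 immune markers. Of 10 suprabasal markers, only 1 to 2 lay below it, and that list averaged 3.59 to 4.15 log2 units above it. The part of suprabasal cells in the stress keratin values was not tested. Differences are given as log2 values from one limma fit with the 6 groups, in which 28898 probe sets were tested and a probe set was called at a Benjamini-Hochberg adjusted p under 0.05.

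At D4, Krt6a, which encodes a type II stress keratin, was bright in every region. On Krt6a_a_at the log2 intensity was 12.84 and 12.73 in the LE, then 12.57 and 12.48 in the hub, and 12.15 and 11.83 in control skin. The regions did not overlap, in the order LE, hub, control. On Krt6a_x_at it was 12.73 and 12.62 in the LE, then 12.42 and 12.40 in the hub, and 12.10 and 11.75 in control skin. On Krt6a_at it was 12.58 and 12.61 in the LE, then 12.52 and 12.50 in the hub, and 12.41 and 12.18 in control skin. All 3 probe sets kept the same order of regions, and the third had the narrowest range. The suffix _x_at marks a probe set in which some probes can match other sequences, and _a_at one shared by transcripts of a gene. In D7 control skin, where the Krt6b probe set was near the bottom of the array, the Krt6a probe sets read 10.69 to 11.22. How much Krt6b RNA the Krt6a probe sets also read, there or in the wound regions, was not tested.

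Krt6b, whose product also pairs with keratin 16 and keratin 17, gave 12.03 and 12.06 in the D4 LE, 11.89 and 11.87 in the D4 hub, and 11.17 and 8.69 in D4 control skin. Both wound regions lay above both control arrays, which themselves differed by 2.48. Krt16, the type I partner of keratin 6, gave 12.36 and 12.36 in the D4 LE, 12.08 and 12.18 in the D4 hub, and 12.04 and 11.66 in D4 control skin. Here too the regions did not overlap, although the lower hub array was only just above the higher control array.

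At D7 the contrast with control skin was wider. On Krt6a_a_at the log2 intensity was 12.07 and 12.02 in the LE, then 11.68 and 11.71 in the hub, and 10.84 and 10.96 in control skin. On Krt6a_x_at it was 11.91 and 11.88 in the LE, then 11.59 and 11.57 in the hub, and 10.69 and 10.86 in control skin. The 3 regions were again apart on both probe sets. On Krt6a_at it was 11.76 and 11.54 in the LE, then 11.56 and 11.56 in the hub, and 11.18 and 11.22 in control skin. On this probe set the LE and the hub overlapped, and both were above control skin.

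Krt6b was the most different of the 3 genes at D7. It gave 11.37 and 10.85 in the LE, then 10.75 and 10.77 in the hub, and 3.04 and 3.17 in control skin. The control values lay 1.24 and 1.11 below the median of their arrays, at percentiles 9.03 and 14.2 of 45037 probe sets, so they give only an upper limit to the level there. On the 8 LE and hub arrays the same probe set lay at percentiles 99.05 to 99.70. Krt16 gave 11.72 and 11.75 in the D7 LE, 11.27 and 11.21 in the D7 hub, and 10.47 and 10.64 in D7 control skin, with no overlap between regions.

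**Figure D1:**
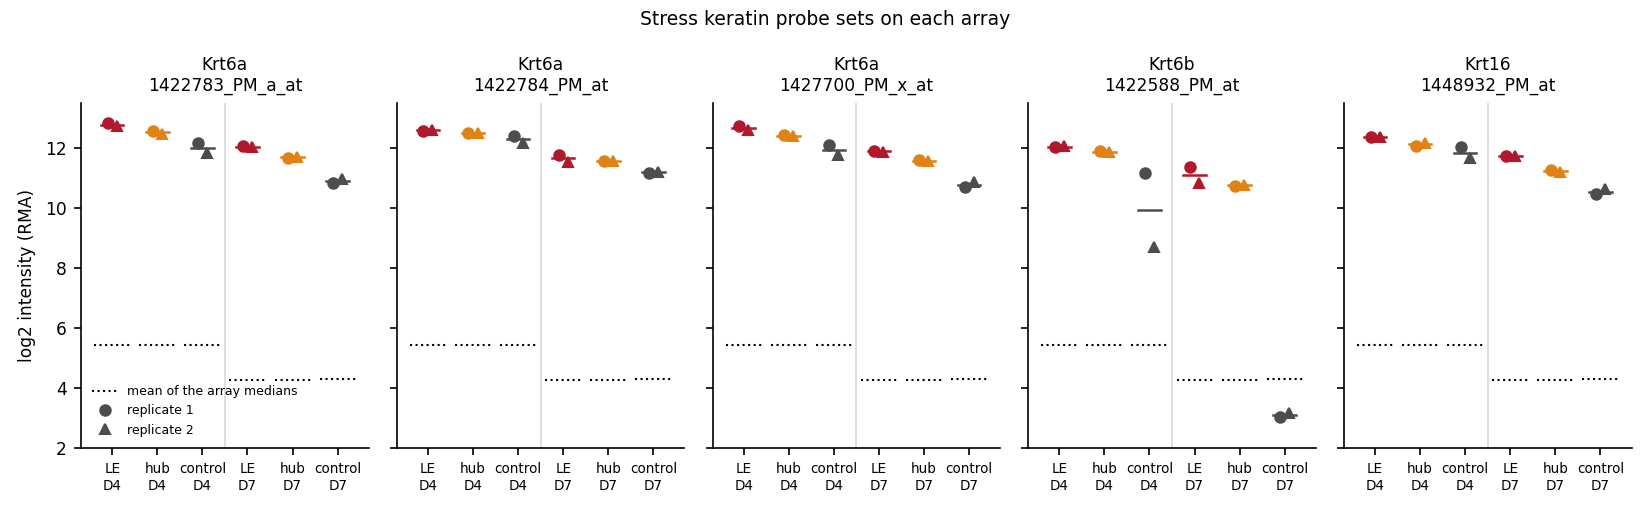
Log2 intensity (RMA, vertical axis) of the 5 stress keratin probe sets on each of the 12 arrays, by region and day. Circles and triangles are replicates 1 and 2, horizontal bars are group means and dotted lines the mean of the array medians. Krt6b in D7 control skin (3.04 and 3.17) is the only member below the array median, and in D4 control skin its 2 arrays stand apart (11.17 and 8.69).

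In the LE at D4, 4 of the 5 probe sets were called higher than in control skin, against 7.51% of all probe sets. Since 3 of the 5 probe sets read 1 gene, they are not 5 independent measurements. Krt6a rose by 0.79 (SE 0.123, adjusted p = 0.00258) on Krt6a_a_at and by 0.75 (SE 0.126, adjusted p = 0.00397) on Krt6a_x_at, which is 1.73-fold and 1.68-fold. On Krt6a_at its difference was 0.30 (SE 0.113, adjusted p = 0.124), which did not pass the threshold. Krt6b rose by 2.11 (SE 0.580, adjusted p = 0.0396) and Krt16 by 0.51 (SE 0.132, adjusted p = 0.0302). Both LE arrays lay above both control arrays on all 5 probe sets, as on 28.6% of all probe sets. The median of the 5 differences was 0.75, and that of all probe sets was 0.03.

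The Krt6b call at D4 depended on single arrays. Its difference was 3.35 without control replicate 1 (adjusted p = 5.06e-05) and 0.87 without control replicate 2 (adjusted p = 0.0246), in fits where the lone control array is assumed to vary like the other groups. Without any one of the other 10 arrays the adjusted p was 0.0523 to 0.132. The Krt16 call was lost without LE replicate 1 (adjusted p = 0.107), without LE replicate 2 (adjusted p = 0.0974) or without control replicate 2, where the difference was 0.32 (adjusted p = 0.194). The Krt6a calls on Krt6a_a_at and Krt6a_x_at held without any single array.

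In the hub at D4, none of the 5 probe sets was called against control skin by limma, against 0.19% of all probe sets called higher. At an unadjusted p under 0.05 there were 3, and with a trended and robust prior 2 were called, both of Krt6a. The differences were 0.53 (SE 0.123, adjusted p = 0.139) for Krt6a_a_at, 0.48 (SE 0.126, adjusted p = 0.176) for Krt6a_x_at and 0.21 (SE 0.113, adjusted p = 0.587) for Krt6a_at. For Krt6b the difference was 1.95 (SE 0.580, adjusted p = 0.232), and without control replicate 1 it was 3.19 (adjusted p = 0.000932). Krt16 differed by 0.28 (SE 0.132, adjusted p = 0.516). All 5 probe sets had both hub arrays above both control arrays, as did 20.9% of all probe sets.

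At D7 all 5 probe sets were called higher in the LE than in control skin, against 8.32% of all. Krt6b rose by 8.0 (SE 0.580, 95% CI 6.71 to 9.30, adjusted p = 6.07e-05), which was the largest difference of the 28898 probe sets in this comparison. With the control set at the median of its arrays, 4.28, the rise was at least 6.83, or 114-fold, and 0 other probe sets had a larger difference than this bound. Krt6a rose by 1.15 (SE 0.123, adjusted p = 0.000453) on Krt6a_a_at, by 1.12 (SE 0.126, adjusted p = 0.000569) on Krt6a_x_at and by 0.45 (SE 0.113, adjusted p = 0.0258) on Krt6a_at. Krt16 rose by 1.18 (SE 0.132, adjusted p = 0.000547), or 2.27-fold. No member overlapped between these groups, as was the case for 30.1% of all probe sets in this direction, and the median of the 5 differences was 1.15, against 0.02 over all. The call on Krt6a_at was lost without LE replicate 1 or without either control array (highest adjusted p = 0.175), and the other 4 calls held without any single array.

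In the hub at D7, 3 of the 5 probe sets were called higher than in control skin, against 0.356% of all probe sets. Krt6b rose by 7.65 (SE 0.580, 95% CI 6.36 to 8.95, adjusted p = 0.00104), again the largest of all differences, and by at least 6.48, or 89.1-fold, with the control set at its array medians, which 0 other probe sets exceeded. Krt6a rose by 0.80 (SE 0.123, adjusted p = 0.0277) on Krt6a_a_at and by 0.81 (SE 0.126, adjusted p = 0.0302) on Krt6a_x_at, and both calls were lost without any one of the 6 arrays of D7 (highest adjusted p = 0.234). On Krt6a_at the difference was 0.36 (SE 0.113, adjusted p = 0.224). All 5 probe sets were higher in both hub arrays than in both control arrays, a pattern of 25.1% of all probe sets. Krt16 differed by 0.69 (SE 0.132, adjusted p = 0.0605), just outside the threshold, and passed it without either D4 control array, which enter the shared error. The Krt6b call held without any single array.

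**Figure D2:**
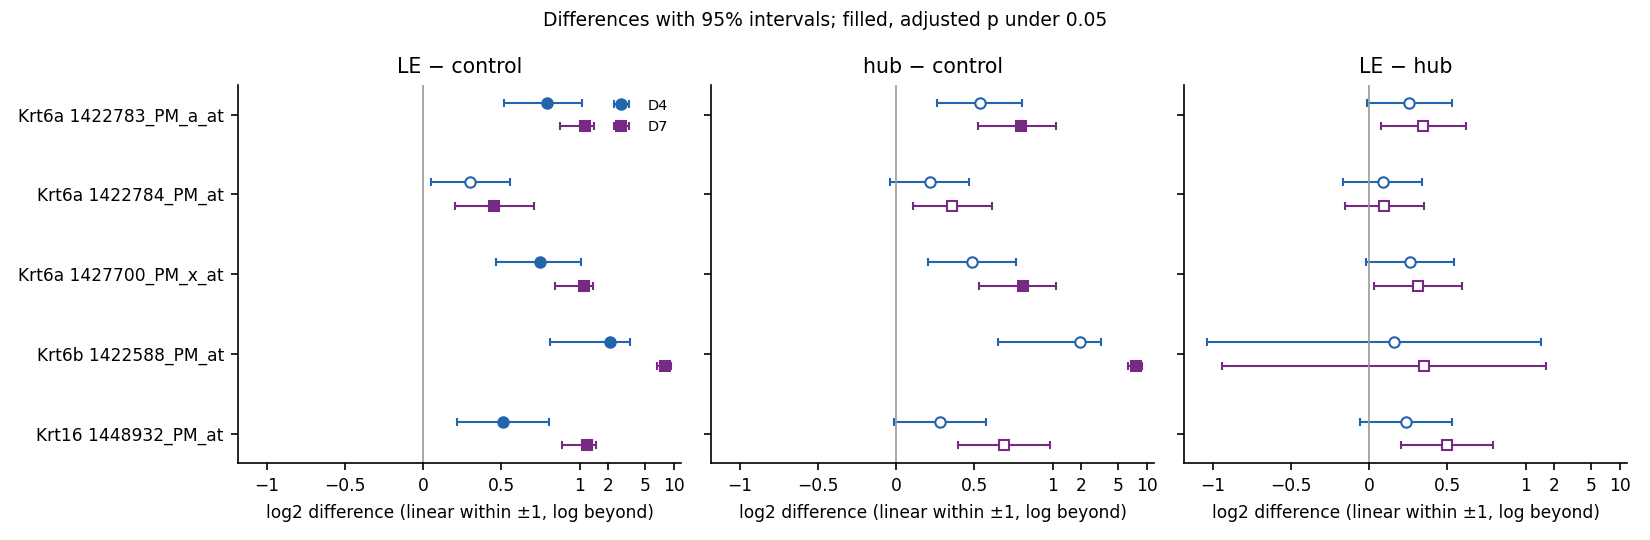
Log2 difference of each stress keratin probe set (rows) for the LE minus control, the hub minus control and the LE minus the hub, at D4 (circles) and D7 (squares), with 95% intervals from limma. The horizontal axis is linear within ±1 and logarithmic beyond, and filled symbols passed an adjusted p of 0.05. Krt6b at D7 (8.0 in the LE and 7.65 in the hub) stands beyond all others, and no LE minus hub difference passed.

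Between the wound regions themselves, none of the 10 differences of the members was called, against 2.36% of all probe sets called higher in the LE at D4 and 1.11% at D7. At an unadjusted p under 0.05 there were 0 at D4 and 3 at D7, and with a trended and robust prior 0 at D4 and 2 at D7 (Krt6a_a_at and Krt16). The order LE above hub without overlap was seen for 5 of 5 probe sets at D4 and 4 of 5 at D7, against 24.8% and 24.4% of all probe sets. For Krt16 at D7 the LE was above the hub by 0.50 (95% CI 0.20 to 0.79, adjusted p = 0.0920), which passed the threshold without either D4 control array. For Krt6a_a_at the LE exceeded the hub by 0.26 (95% CI -0.02 to 0.53) at D4 and by 0.35 (95% CI 0.07 to 0.62, adjusted p = 0.198) at D7. On Krt6a_at the difference was 0.09 (95% CI -0.17 to 0.34) at D4 and 0.10 (95% CI -0.16 to 0.35) at D7, and without LE replicate 1 the D7 value was -0.01. For Krt6b the intervals were wide, at 0.16 (95% CI -1.13 to 1.46) at D4 and 0.35 (95% CI -0.94 to 1.65) at D7. These intervals include differences of over 1 log2 unit in either direction at D4. Their width comes from a spread shared by all 6 groups, which takes in the gap of 2.48 between the D4 control arrays. Replicate 1 minus replicate 2 was -0.03 in the D4 LE, 0.01 in the D4 hub, 0.52 in the D7 LE and -0.02 in the D7 hub.

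The 3 Krt6a probe sets differed in size, not in direction. In all 4 comparisons with control skin the difference on Krt6a_at was the smallest of the 3, at 0.21 to 0.45, while the other 2 gave 0.48 to 1.15. On this probe set, 192 to 208 of 45037 probe sets were brighter in D7 control skin and 48 to 111 in D4 control skin. In the D4 LE, 4 and 7 probe sets were brighter than Krt6a_a_at, on arrays whose highest value was 13.11 and 13.05. How far signals near the top of an array narrow the differences of Krt6a and Krt16 was not tested.

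The study's methods took a gene into a signature when its fold exceeded 2 in each replicate. Set against the control array of the same number, 4 of the 5 probe sets met this in the D7 LE (1.64% of all probe sets) and 1, that of Krt6b, in the D7 hub (0.249%). In the D7 LE the folds were 2.36 and 2.08 for Krt6a_a_at, 2.33 and 2.04 for Krt6a_x_at, and 2.39 and 2.16 for Krt16. On Krt6a_at both were under 2. At D4 none of the 5 met the rule in either region, against 2.06% of all probe sets in the LE and 0.284% in the hub. The nearest was Krt6b, at 1.80 and 10.3 in the LE. In the hub it had 1.64 and 9.07, and in both regions replicate 1 was set against the bright control array.

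The differences from control skin were larger at D7 than at D4 for every member in both regions, but the change between days passed for none of them. Krt6b changed by 5.90 in the LE (SE 0.820, 95% CI 4.06 to 7.73, unadjusted p = 3.26e-05, adjusted p = 0.114) and by 5.70 in the hub (SE 0.820, adjusted p = 0.622). Since the D7 control values are only an upper limit, the change was also taken with D7 control skin set at its array medians. It was then 4.72 in the LE and 4.53 in the hub. These values are no lower bound, since they rest on the mean of 2 D4 control arrays that were 2.48 apart. Both changes passed without control D4 replicate 1 (4.66 in the LE, 4.46 in the hub) and without control D4 replicate 2 (7.14 in the LE, 6.94 in the hub), the lone array then being assumed to vary like the other groups. Of all probe sets, 0.0138% were called for this change in the LE in either direction, and 0 in the hub. For the change of the LE minus hub difference 0.0104% were called, and no member (Krt6b 0.19, 95% CI -1.64 to 2.02). For Krt16 the change was 0.67 (95% CI 0.26 to 1.09, adjusted p = 0.384) in the LE and 0.41 (95% CI -0.01 to 0.83, adjusted p = 0.999) in the hub. For Krt6a_a_at it was 0.36 (95% CI -0.03 to 0.74) in the LE and 0.27 (95% CI -0.12 to 0.65) in the hub.

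The wound values of Krt6b kept their place relative to the median of all 45037 probe sets on both days, while those of control skin did not. The Krt6b probe set stood 6.56 and 6.66 above the array median in the D4 LE and 7.12 and 6.59 above it in the D7 LE. In D4 control skin it stood 5.74 and 3.28 above the median, whereas in D7 control skin it was 1.24 and 1.11 below. Control skin at D4 exceeded that at D7 by 6.82 for Krt6b, by 1.09 to 1.15 for the Krt6a probe sets and by 1.30 for Krt16, beside a median of 1.01 over all probe sets, 90.8% of which were called higher at D4. With the median of the 28898 probe sets of each array subtracted, Krt6b differed by 5.70 and Krt16 by 0.18, while Krt6a_a_at and Krt6a_at turned to -0.03 each and Krt6a_x_at was at 0.03. With quantile normalization over all 12 arrays the differences were 5.92 for Krt6b, 0.42 for Krt16, and 0.27, 0.33 and 0.30 for Krt6a_a_at, Krt6a_at and Krt6a_x_at, so that the sign for Krt6a depended on the scaling.

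The D4 control arrays differed by more than any other replicate pair for all 5 members. The gap of replicate 1 over replicate 2 was 0.32, 0.22 and 0.34 for Krt6a_a_at, Krt6a_at and Krt6a_x_at, 0.38 for Krt16 and 2.48 for Krt6b. Replicate 1 was the higher array each time. Only 19 of 28898 probe sets had a larger absolute gap than Krt6b, and the median gap of these arrays was 0.148. Krt5 and Krt14, the keratins of basal cells, differed by -0.05 and 0.00.

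Markers of some other cells differed between the D4 control arrays in the same direction, and those of others did not. Of the 5 measured genes of the upper hair follicle and infundibulum list, Cst6 was higher in D4 control replicate 1 by 3.13, Defb6 by 2.85 and Krt79 by 2.54, while Lrig1 and Plet1 differed by 0.17 and 0.06. Their summed linear intensity was 4380 to 5892 in the D4 LE, 3832 to 7191 in the D4 hub, and in control skin 7669 in replicate 1 and 3826 in replicate 2, and none of the 5 was below the array median on any array. All 4 endothelial markers (by 0.79 to 2.09) and all 5 melanocyte markers (by 0.21 to 3.97) were also higher in control replicate 1. The fibroblast markers differed by -0.52 (Col1a2) to 0.19 (Col1a1), and the immune markers by -0.05 (Cd3e) to 1.05 (Lyz2). For the bulge and outer root sheath markers the range was -1.49 (Krt75) to 0.38 (Sox9). The endothelial list summed to 310 to 502 in the D4 LE, 226 to 369 in the D4 hub and 169 to 520 in D4 control skin, with at most 1 of its 4 genes below the array median. The melanocyte list summed to 197 to 219 in the D4 LE, 266 to 2183 in the D4 hub and 273 to 955 in D4 control skin, with 4, 0 to 3 and 1 to 3 of its 5 genes below the median. In the D4 hub, Krt79, Defb6 and Cst6 differed between the arrays by 1.68 to 1.88, Lrig1 by 0.68 and Plet1 by 0.23. Krt6b differed there by 0.01. The part of these cells in the Krt6b values of control skin was not tested. In bulk samples, fewer cells with a transcript and less of it per cell cannot be told apart.

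**Figure D3:**
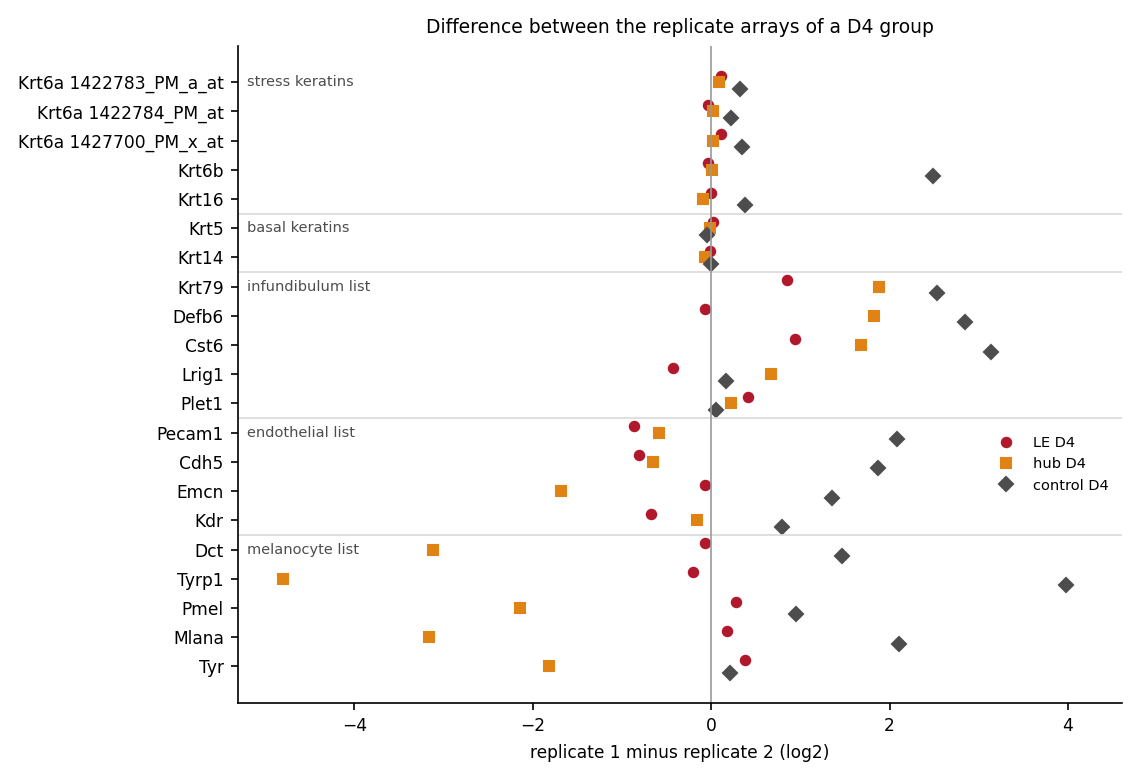
Difference of replicate 1 minus replicate 2 (log2, horizontal axis) in the 3 D4 groups for the stress keratins, 2 basal keratins and the measured markers of the infundibulum, endothelial and melanocyte lists. In control skin Krt6b differs by 2.48 and Krt79, Defb6 and Cst6 by 2.54 to 3.13. Lrig1 and Plet1, of the same list as those 3, differ there by 0.17 and 0.06. The endothelial markers differ there by 0.79 to 2.09 and the melanocyte markers by 0.21 to 3.97. In the hub Krt79, Defb6 and Cst6 differ by 1.68 to 1.88, Lrig1 by 0.68, Plet1 by 0.23 and Krt6b by 0.01.

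At D7 the Krt6b values of the control arrays were close. The infundibulum list then averaged 4.32 and 4.28 above the array median in the LE, against 5.14 and 4.68 in control skin. Of its 5 genes Plet1 was called lower in the D7 LE than in control skin (-0.86), and none was called in the other region comparisons. Of the endothelial markers, Cdh5 was called higher in the D7 LE than in control skin (by 2.03) and than in the hub (by 2.56), and no melanocyte or immune marker was called in any region comparison. Of the 6 fibroblast markers, Dcn was called lower in the D7 LE than in control skin (-2.59). Of the 7 bulge and outer root sheath markers, Postn was called lower in the LE against control skin (-1.32 at D4, -1.18 at D7) and against the hub (-1.12 at D4, -0.76 at D7), and Sox9 in the D4 LE against control skin (-0.61). This list summed to 1363 to 1527 in the D4 LE, 2158 to 2751 in the D4 hub and 2614 to 2982 in D4 control skin. At D7 it summed to 956 to 1033 in the LE, 1374 to 1425 in the hub and 1771 to 1886 in control skin. Of its 7 genes 3 to 5 were below the array median on every array, and its part in the stress keratin values was not tested. The part of endothelial cells in the D7 LE values was not tested.

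Every other keratin that was called in a region comparison was lower in the wound region, or lower in the LE than in the hub. The array measured 38 further keratin genes with 45 probe sets, and none was called higher in any of the 6 comparisons, with medians of -0.02 to -0.07. In the D4 LE 7 were called lower than in control skin (5.57% of all probe sets were), in the D7 LE 2 (5.32%), and in the hub none at D4 (0.0865%) or D7 (0.159%). Krt15, a keratin of basal and hair follicle stem cells, was at 7.26 and 8.31 in the D4 LE, against 10.01 and 10.52 in control skin, a fall of 2.48 (SE 0.389, adjusted p = 0.00273). It fell by 1.88 (SE 0.389, adjusted p = 0.0116) in the D7 LE, a call lost without LE replicate 1 or either control array. Krt5 and Krt14, the main keratin pair of the basal layer, were not called, with differences of -0.07 and -0.01 in the D4 LE. Of the 7 basal epidermal markers, which include both, 2 were called higher in the D4 LE than in control skin, against 7.51% of all probe sets. None was called in the other region comparisons.

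The rest of the called keratins belong to differentiating or specialised cells. In the D4 LE, Krt36 fell by 5.97 (adjusted p = 0.00324) and Krt84 by 3.92 (adjusted p = 0.00811), both of the hair and nail type, and both calls held without any single array. Krt80 fell by 1.70 at D4 (adjusted p = 0.00776), which was lost without control replicate 2, and by 1.82 at D7 (adjusted p = 0.00589), which was lost without LE replicate 1. Krt1 fell by 0.77 (adjusted p = 0.0155) and Krt10 by 0.69 (adjusted p = 0.0306), the keratin pair of suprabasal cells, in calls lost without LE replicate 1 or either control array. Krt2, of late differentiation, fell by 5.26 (adjusted p = 0.0474), but its LE arrays read 3.93 and 7.83 and the call was lost without LE replicate 1, either control array or any of 4 D7 arrays. Against the hub, 2 were called lower in the LE at D4 (1.97% of all probe sets) and 1 at D7 (1.15%). Relative to the hub, Krt15 fell by 1.90 and Krt36 by 4.62 in the D4 LE, and Krt84 fell by 3.73 in the D7 LE. These calls were lost when any one of 2, 3 and 7 of the 12 arrays was left out. Of the 10 suprabasal markers, 3 were called lower in the D4 LE, namely Krt1, Krt10 and the desmosomal cadherin Dsg1a (-1.54), and none at D7.

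**Figure D4:**
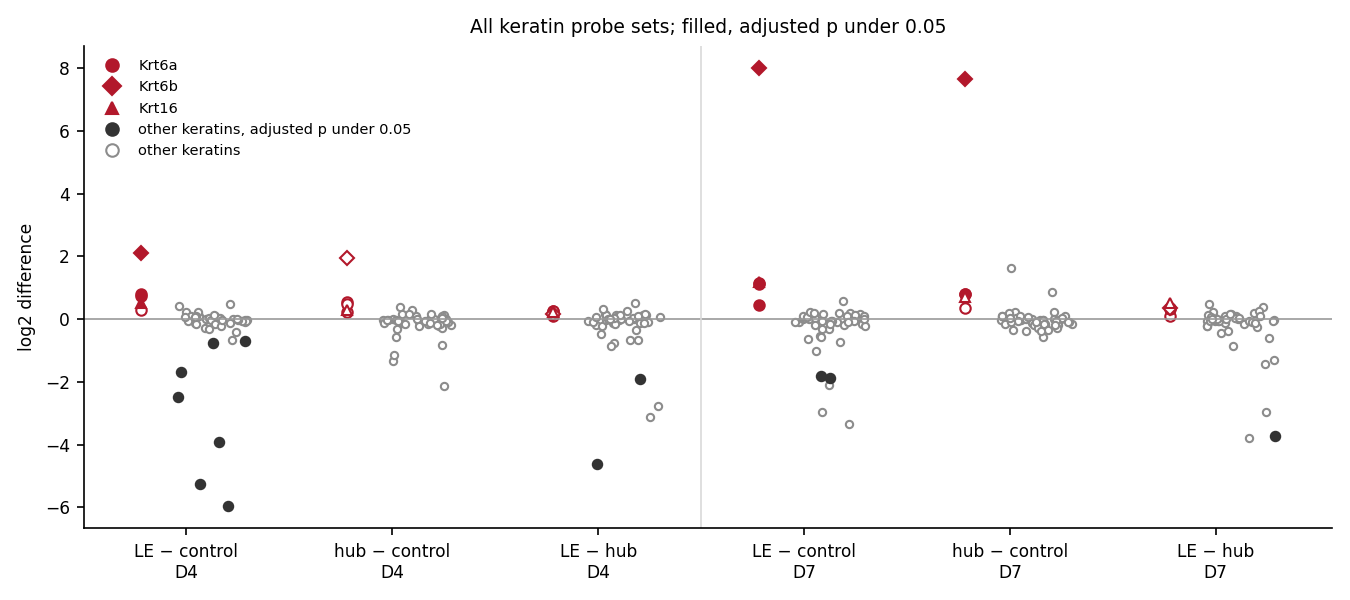
Log2 difference (vertical axis) of every keratin probe set in the 6 comparisons, with the stress keratins on the left of each column in red (circles Krt6a, diamonds Krt6b, triangles Krt16) and 45 probe sets of 38 other keratin genes on the right in grey. Filled symbols passed an adjusted p of 0.05, and all filled symbols below 0 are other keratins, the lowest being Krt36 at -5.97 in the D4 LE.

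Keratins of simple epithelia, Krt7, Krt8, Krt18 and Krt19, had no member called in any comparison, with Krt18 at 0.50 in the D4 LE (adjusted p = 0.0533). Of 8 measured genes for desmosomal plaque proteins and other keratin anchors, 1 was called. It was lower in the LE than in control skin on both days, against 5.57% of all probe sets at D4 and 5.32% at D7. Dst, which encodes the hemidesmosomal keratin linker BPAG1 among its isoforms, fell by 1.06 (adjusted p = 0.000280) in the D4 LE and by 0.89 (adjusted p = 0.000824) in the D7 LE. Both calls held without any single array, and the median of the list in the D7 LE was 0.03. Against the hub, 1 of the 8 was called lower in the LE on each day, beside 1.97% of all probe sets at D4 and 1.15% at D7. At D4 the Dst difference from the hub was -0.65 (adjusted p = 0.00915 from limma), a call lost with the arrays of the day alone.

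Of 12 measured genes for factors linked to the regulation of stress keratins, 1 was called higher and 5 lower in the LE on each day. Over all probe sets 7.51% were called higher and 5.57% lower at D4, and 8.32% and 5.32% at D7. Nfe2l2, which encodes NRF2, rose by 0.65 (adjusted p = 0.0299) at D4 and by 0.84 (adjusted p = 0.00997) at D7, and each call was lost without any one of 3 arrays. The genes that fell at D4 included the AP-1 subunits Junb by 0.85, Jun by 0.66 and Fosb by 0.64, and those at D7 Jund by 0.97, Fosl1 by 0.82 and Jun by 0.78. In the hub only Fosl1 was called, at D7, where it fell by 0.92 (adjusted p = 0.0144), a call lost without either hub or either control array of that day. The median of this list was -0.35 in the D4 LE and -0.48 in the D7 LE, beside 0.03 and 0.02 over all probe sets.

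Some other genes of activated epidermis were called higher as well. The list held genes that the study had picked out in these samples, so that its direction is not independent evidence. The LE had 5 of the 10 measured genes called higher than control skin on each day, the D4 hub 1 and the D7 hub 3, and none was lower. The shares of all probe sets called higher were 7.51% in the D4 LE, 8.32% in the D7 LE, 0.19% in the D4 hub and 0.356% in the D7 hub. In the D4 LE the largest rises were those of Il24 (4.22), Gjb6 (3.88), S100a9 (3.21) and Gjb2 (2.91), a cytokine, a gap junction protein, a subunit of calprotectin and a second gap junction protein. All but that of S100a9 held without any single array. In the D7 hub, Il24 rose by 3.06, Gjb2 by 3.03 and Sprr1b, a cornified envelope precursor, by 2.05, and only the Gjb2 call held without any single array. Against the hub, the LE was higher for Gjb6 at D4 by 3.29 and at D7 by 1.11 and for Sprr1b by 1.65 and 1.44. Leaving out any one of 3 arrays ended the calls of Gjb6 at D7 and of Sprr1b at D4, any one of 6 arrays that of Sprr1b at D7, and none that of Gjb6 at D4. The Sprr1b call at D7 was also lost with a replicate block (adjusted p = 0.0523) and with quantile normalization over all arrays (adjusted p = 0.0630) or within each day (adjusted p = 0.0584). S100a9 was higher in replicate 1 of all 3 D4 groups, by 1.43 in the LE, 2.54 in the hub and 2.44 in control skin.

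The genes whose pattern was most like that of each member were found from Pearson's r over the 12 arrays, after the mean of each day was subtracted, among 5160 probe sets with a range of at least 1 log2 unit. These values describe 12 arrays that share the same 6 groups. Among themselves the members correlated with r of 0.907 to 0.998, highest between Krt6a_a_at and Krt6a_x_at. The nearest other genes to Krt6a_a_at were Has3, a hyaluronan synthase (0.988), Tmem97 (0.987) and Smim3 (0.985), and to Krt6a_x_at Has3 (0.986), Tmem97 (0.982) and Fabp5 (0.982), a fatty acid binding protein of keratinocytes. For Krt6a_at they were Mcm3, a subunit of the replicative helicase (0.975), Nup43 (0.965) and Slc25a39 (0.963).

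For Krt16 the nearest genes were Iars, an isoleucyl-tRNA synthetase (0.980), Ccdc86 (0.978) and S1pr3, a sphingosine-1-phosphate receptor (0.977). For Krt6b they were 2610528A11Rik, whose synonym is Gpr15l (0.968), Cdhr1 (0.963) and the carbonic anhydrase Car2 (0.958). Like Krt6b, Cdhr1 was below the array median in D7 control skin. It gave 6.88 and 7.18 in the D7 LE, 6.34 and 6.65 in the D7 hub, and 3.64 and 3.70 in D7 control skin. Its D4 control arrays were apart too, at 8.01 and 6.73, as were those of 2610528A11Rik at 11.27 and 9.84 and those of Car2 at 9.07 and 7.81. These genes were chosen by their likeness to Krt6b over the same arrays, so that a shared pattern follows from the choice. Such a gap was not confined to them, with the D4 control arrays of Fabp5, near Krt6a_x_at, at 10.44 and 9.08. Has3, the gene most like Krt6a_a_at and Krt6a_x_at, gave 8.02 and 7.50 in the D7 LE and 6.55 and 6.36 in the D7 hub. In D7 control skin it gave 3.62 and 3.91, also below the array median, and in D4 control skin 7.22 and 6.21.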

How the data were processed

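The deposited values were log2 intensities that the authors had computed with the RMA algorithm, which corrects for background, gives all arrays of a run 1 distribution and condenses the probes of a set into 1 value. The sources used here do not name its software. Of 45141 probe sets, 104 array controls, 15588 without a gene and 551 with several genes in the annotation used here were left out. The 28898 with 1 gene were tested one by one, without a filter on dim probe sets, in limma 3.58.1 under R 4.3.3 with the 6 groups as terms and 6 residual degrees of freedom. The same fit gave the change of each difference between days. Adjusted p values were by Benjamini-Hochberg over all 28898, and every adjusted p and SE in the text is from limma, with 2 arrays in a group (1 in the group that had an array left out), a number that limits the precision.

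The members and the gene lists were chosen with earlier results of these data known. Named were all probe sets of the members, every keratin called in a comparison, up to 4 called genes of a list with the largest change and any against its direction, and the 3 genes most like each member. Cdhr1, 2610528A11Rik, Car2 and Has3 are given with values as such genes, and the cell type markers named were chosen after their values were seen. The alternatives were 3 scalings of the arrays, 1 probe set or the mean per gene, a filter on dim probe sets, weights per array, a prior that was trended and robust, fits on fewer arrays, a replicate block, and leaving out each of 12 arrays. The procedure was tested on simulated data. Sequences and genomic positions of the probe sets were not used here, nor were raw array files. Krt17 was not paired alone with a probe set and was not analysed here.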

Additional observations from a re-analysis of the deposited data

How the results depend on the processing

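Under the 11 alternatives that kept all arrays, 379 of 406 values of the member differences kept their direction and their side of the threshold, 17 lost and 8 gained a call, and 2 turned their sign. The Krt6b differences of the D7 LE and the D7 hub from control skin kept their calls in every alternative run for them (9 for Krt6a_x_at, 11 for the others named here) and without any single array, as did those of the D7 LE for Krt6a_a_at and Krt6a_x_at and for Krt16. Subtraction of the median of the 28898 probe sets of an array turned the difference of D4 from D7 control skin to -0.03 for Krt6a_a_at and on Krt6a_at (-0.0284 and -0.0257). Quantile normalization over all 12 arrays ended the calls of the D7 hub for Krt6a, at 0.71 on Krt6a_a_at and 0.72 on Krt6a_x_at, and left 95 probe sets called there. With 1 probe set per gene, 2416 were called in the D4 LE, 2499 in the D7 LE and 813 for the D4 LE against the hub, out of fewer tested. With the mean of the probe sets of a gene, Krt16 passed in the D7 hub (0.69). With array weights Krt6b did not pass in the D4 LE (2.11, adjusted p = 0.0537).

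A trended and robust prior added calls for Krt6a_at in the D4 LE (0.30) and the D7 hub (0.36), for Krt6a_a_at and Krt6a_x_at in the D4 hub (0.53 and 0.48), for Krt16 in the D7 hub (0.69), and for Krt6a_a_at and Krt16 between the LE and the hub at D7 (0.35 and 0.50). It ended the Krt6b call in the D4 LE (2.11, adjusted p = 0.122) and called 179 probe sets in the D4 hub and 277 in the D7 hub. With the arrays of the day alone, Krt6b (2.11, adjusted p = 0.163) and Krt16 (0.51, adjusted p = 0.106) did not pass in the D4 LE, and the counts were 2083 in the D4 LE, 2 in the D4 hub, 332 for the D4 LE against the hub, 226 in the D7 hub and 1007 between the LE and the hub at D7. With the arrays of the 2 groups alone, no member passed in the D4 LE (0.79 and 0.75 for Krt6a, 2.11 for Krt6b, 0.51 for Krt16), nor Krt6a_at in the D7 LE (0.45), nor Krt6a_a_at and Krt6a_x_at in the D7 hub (0.80 and 0.81). Then 1350 were called in the D4 LE, 0 in the D4 hub and 254 for the D4 LE against the hub.

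Without 1 array at a time, the differences from control skin ranged over 0.87 to 3.35 for Krt6b and 0.32 to 0.70 for Krt16 in the D4 LE, over 0.71 to 3.19 for Krt6b in the D4 hub, over 0.35 to 0.56 for Krt6a_at in the D7 LE, and in the D7 hub over 0.74 to 0.86 for Krt6a_a_at, 0.72 to 0.89 for Krt6a_x_at and 0.60 to 0.77 for Krt16. Between the LE and the hub at D7, Krt16 ranged over 0.47 to 0.53 and Krt6a_at over -0.0112 to 0.20. The change of the LE minus hub difference between days ranged over -0.10 to 0.12 for Krt6a_at, including -0.01, over -0.00145 to 0.11 for Krt6a_x_at and over -0.0694 to 0.45 for Krt6b. The counts called ranged over 2481 to 3657 in the D4 LE, 9 to 67 in the D4 hub, 457 to 1421 between them at D4, 1536 to 4164 in the D7 LE, 10 to 168 in the D7 hub and 77 to 748 between them at D7.

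Same-numbered arrays deviated together with r of 0.174 to 0.261 at D4 and -0.01 to 0.07 at D7, and the labels do not tie a number to shared mice. Since not every pair reached 0.1, the numbers were not taken to pair the arrays, although all D4 pairs did. A replicate block within the day changed no call of a member (Krt6b in the D4 LE 2.11, adjusted p = 0.0372) and called 120 probe sets in the D4 hub, against 80 without the block. Among the other genes named, it ended the Sprr1b call between the LE and the hub at D7 (1.44, adjusted p = 0.0523). Causes of these changes were not tested.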
